A study of Mus musculus with 4 samples.

Results

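L6-Npy neurons are a deep-layer excitatory type of the mouse ventromedial prefrontal cortex (vmPFC), and the neurons described here are those of this type in which the viral barcode RNA was either plentiful or not seen. All neurons that the authors' annotation names L6-Npy were taken, 1118 of 9368 annotated excitatory neurons. They were grouped by the raw count of unique molecular identifiers (UMIs, one per captured RNA molecule) of the feature named barcode. A neuron with 5 or more barcode UMIs was called barcode-high (535 neurons), one with 0 was called barcode-zero (232 neurons), and the 351 neurons with 1 to 4 UMIs were kept apart. The groups compared therefore held 767 neurons. At the border, 67 neurons held exactly 4 barcode UMIs and 59 held exactly 5. The median of the barcode-high neurons was 11 UMIs and the highest count was 165.

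The neurons come from MERGE-seq, a single-cell RNA sequencing experiment that reads viral barcodes together with the transcriptome. Male C57BL/6 mice, 8 weeks old when injected, received rAAV2-retro-EGFP viruses with 5 different barcodes, driven by a short CAG promoter, 1 barcode into each of 5 targets of the vmPFC: LH and MD (the lateral hypothalamus and the mediodorsal thalamus), BLA (the amygdala's basolateral part), DMS (the striatum, dorsomedially) and AI (agranular insular cortex). Prelimbic and infralimbic tissue was cut from vibratome slices that had been kept in the glutamate receptor blockers CNQX and D-AP5, dissociated enzymatically and run on droplets as 4 libraries. The libraries unsorted 1, 2 and 3 each came from 1 mouse, and the library called sorted came from a pool labelled mouse 4 to 6 that was selected for EGFP by fluorescence-activated cell sorting. Both barcode groups thus carried the same injections, and every library held both. Barcode-high neurons numbered 146, 126, 147 and 116 in unsorted 1, 2, 3 and sorted, and barcode-zero neurons 58, 68, 57 and 49, in the same order. All lists of per-library values below keep that order.

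The barcode feature is a single row in the count matrices, so the 5 injection sites were not separated here. A barcode-zero neuron is one without a barcode UMI in the transcriptome library, not one shown to be uninfected. In the sorted library the barcode-zero neurons had passed an EGFP gate. The paper reports many zero barcode counts in its transcriptome libraries, against robust detection in separate barcode libraries amplified from the cDNA. Those separate libraries were not used here. Whether a neuron was infected, how many viral copies it carried and how much RNA it yielded cannot be told apart from the barcode count. Counts were summed per library and group before any test, and in such sums more expressing neurons and more RNA per neuron cannot be told apart. For the Nr4a genes and Npy, shares of neurons with any UMI are given below.

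Retrograde AAV enters axon terminals and is carried back to the cell body, where its genome is expressed, so that barcode RNA marks neurons with an axon at an injected site. L6-Npy neurons take their name from Npy, which encodes neuropeptide Y. Neuronal activity rapidly induces immediate early genes: transcription factors such as Fos, the Egr proteins and the Nr4a nuclear receptors, phosphatases that switch signalling off again, and effectors at synapses such as Arc and Bdnf. The same genes are also known to respond to tissue dissociation, which every neuron here had undergone.

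The name L6-Npy fitted the marker levels. Npy stood at a mean of 205 CPM (counts per 1000000 UMIs of the summed neurons, mean of 4 libraries) in all L6-Npy neurons, against 2.11 CPM in L6-Syt6 neurons and 3.72 CPM in L5-S100b neurons. Sulf1, an extracellular sulfatase, stood at 98.7 CPM in L6-Npy and 5.03 CPM in L5-S100b neurons, but at 73.8 CPM in L6-Syt6 neurons. Markers of the neighbouring types were low: Syt6 3.74, S100b 1.48 and Foxp2 5.87 CPM. Slc17a7, the vesicular glutamate transporter of cortical excitatory neurons, stood at 1159 CPM.

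Depth differed between libraries more than between groups. The median neuron of the unsorted libraries held 19807 to 20921 UMIs when barcode-high and 17807 to 20475 when barcode-zero, and in the sorted library 27411 and 24393. Barcode-high neurons were therefore deeper in 4 of 4 libraries. The 8 sums held 1040420 to 3232362 UMIs. Mitochondrial genes took a median of 7.99 to 8.30% of UMIs in the unsorted groups and 4.42 to 4.79% in the sorted ones. Pairs of libraries shared 5 to 30 cell barcode sequences and no L6-Npy neuron among them.

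A larger share of the RNA of barcode-high neurons came from activity genes. The 75 genes on 6 activity lists took 1.12, 1.17, 1.01 and 1.29% of all UMIs in barcode-high neurons and 0.959, 0.933, 0.793 and 0.712% in barcode-zero neurons. The high value exceeded the zero value in 4 of 4 libraries, by 1.17 to 1.81 times. The mean difference was 0.298 ± 0.188 percentage points (SD, n = 4 libraries), and the exact two-sided sign-flip permutation test over libraries gave p = 0.125, the smallest value that 4 pairs allow.

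The share did not climb evenly with the barcode count. Neurons with 1 to 4 barcode UMIs had 0.851, 0.707, 0.725 and 0.785%, which was below the barcode-zero value in the 3 unsorted libraries and above it in the sorted one. Neurons with 5 to 19 UMIs had 0.996, 1.05, 0.865 and 1.21%. The 112 neurons with 20 or more UMIs had the most, 1.505, 1.52, 1.47 and 1.77%. Against barcode-zero neurons, which all 3 bins share, the mean differences were -0.0821 ± 0.123, 0.182 ± 0.213 and 0.719 ± 0.232 percentage points (SD, n = 4), with higher values in 1, 4 and 4 of 4 libraries. The exact sign-flip permutation p-values were 0.375, 0.125 and 0.125.

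**Figure D1:**
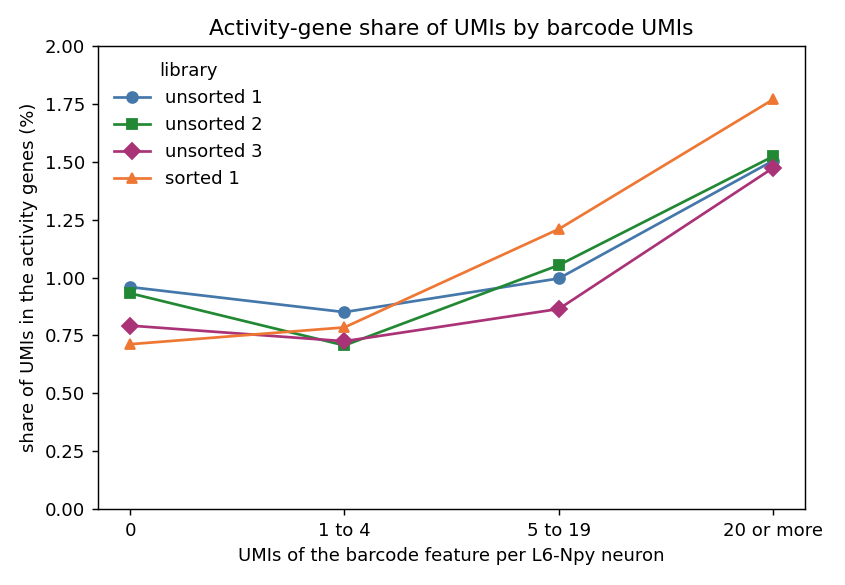
Share of all UMIs taken by the 75 activity genes (percent, vertical axis) in L6-Npy neurons with 0, 1 to 4, 5 to 19 and 20 or more barcode UMIs (horizontal axis), one line for each of the 4 libraries. In each library the neurons with 20 or more barcode UMIs lie highest, between 1.47 and 1.77%, and the lines do not rise from 0 to 1 to 4 in the unsorted libraries.

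Across genes, 10365 had enough counts to be tested, and 83 differed between barcode-high and barcode-zero neurons (edgeR quasi-likelihood F test with library as block, Benjamini-Hochberg adjusted p under 0.05 and at least 0.5 on the log2 scale). Of all genes tested, 0.801% were called, 0.617% higher in barcode-high neurons (64 genes) and 0.183% lower (19 genes). Of the 75 activity genes 60 were tested, and 26 of them were called, all higher. Positive log2 fold changes were seen for 55 of the 60, with a median of 0.52, while the median over all genes tested was -0.00. The remaining 57 called genes, 38 higher and 19 lower, lay outside the activity lists. In 77 of the 83 the 4 libraries had the same direction.

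The number of calls depended on the model. DESeq2 called 11 genes, all higher: the activity genes Nr4a2, Dusp6, Ier2, Nr4a3, Nptx2, Bdnf, Trib1 and Fosl2, and from outside the lists Mest, AC149090.1 and Pim3. Without the library block edgeR called 0 genes (406 at an unadjusted p under 0.05). The libraries are mice or pools of mice. With the library block, the p-values set the difference between the barcode groups against its variation over these 4 libraries.

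**Figure D2:**
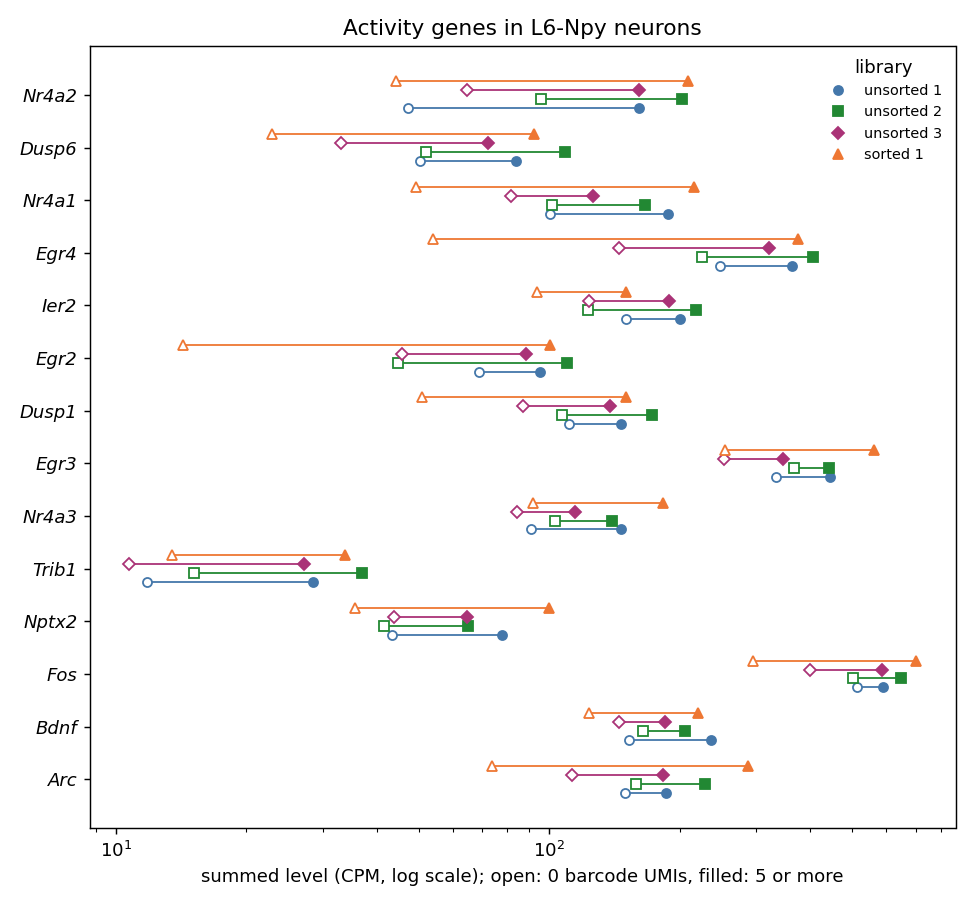
Levels of the 14 genes of lowest p among the called activity genes (CPM, logarithmic horizontal axis, one row per gene) in L6-Npy neurons, with filled points for barcode-high and open points for barcode-zero neurons and one line for each of the 4 libraries. For Nr4a2 the barcode-high points lie at 161 to 209 CPM and the barcode-zero points at 44.4 to 95.9 CPM, and for each gene shown the barcode-high point is the higher one in 4 of 4 libraries.

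All 3 Nr4a genes were called. They encode orphan nuclear receptors, and Nr4a2 is also a known marker of some deep-layer and claustrum neurons. Nr4a2 stood at 161, 202, 161 and 209 CPM in barcode-high neurons (CPM over the tested genes with TMM factors) and at 47.3, 95.9, 64.5 and 44.4 CPM in barcode-zero neurons. Every barcode-high value lay above every barcode-zero value, and the log2 fold change was 1.55 ± 0.108 (SE, adjusted p = 4.41e-12 in edgeR). Nr4a1 stood at 188, 167, 126 and 216 CPM against 100.5, 102, 81.5 and 49.2 CPM, without overlap, a log2 fold change of 1.08 ± 0.122 (adjusted p = 6.99e-07). Nr4a3 followed with 146, 139, 114 and 183 against 90.6, 103, 84.2 and 92.0 CPM and a log2 fold change of 0.65 ± 0.0871 (adjusted p = 7.67e-06). In these 3 genes the groups did not overlap.

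Of the Egr genes, zinc-finger transcription factors and one of their co-repressors, 3 of 5 tested were called. Egr4 stood at 363, 407, 322 and 374 CPM in barcode-high and 248, 225, 145 and 53.9 CPM in barcode-zero neurons (log2 fold change 1.18 ± 0.135, adjusted p = 7.66e-07). Egr2 stood at 95.2, 109.9, 88.5 and 100.4 against 69.0, 44.8, 45.7 and 14.3 CPM (1.23 ± 0.155, adjusted p = 4.27e-06). In both genes the sorted library had the lowest barcode-zero value and so the widest gap. Egr3 had a smaller log2 fold change of 0.57 ± 0.0760 (adjusted p = 7.67e-06), and its groups overlapped. Egr1 passed the test but not the fold limit (log2 fold change 0.47, adjusted p = 5.89e-06), and Nab2, the co-repressor, did not pass (0.07).

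Of 6 AP-1 genes tested, whose products dimerise to bind DNA, 3 were called. They were the Fos-type genes Fos (log2 fold change 0.58 ± 0.0800, adjusted p = 1.14e-05), Fosb (0.58) and Fosl2 (0.70). Fos stood at 588, 647, 586 and 702 CPM against 514, 501, 399 and 295 CPM, with no overlap. Among the Jun-type partners, Junb came just under the fold limit (0.50, adjusted p = 4.44e-05), Jund did not pass (0.16, adjusted p = 0.17), and neither did Jun (0.01, adjusted p = 0.97). Junb thus had a log2 fold change close to those of Fos and Fosb and missed the call by the fold limit alone.

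Of 15 other activity-linked nuclear regulators tested, 4 were called: Npas4, a neuron-specific activity factor (log2 fold change 0.86), Per1, a clock gene with activity-driven expression (0.69), Btg2, an antiproliferative gene (0.65), and Ier2 (0.63). Ier2 stood at 201, 218, 189 and 151 CPM against 151, 123, 124 and 93.6 CPM and overlapped only through its sorted library (adjusted p = 1.11e-06). Npas4 overlapped between the groups, 141 to 238 against 60.3 to 149 CPM.

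Genes that damp signalling were called for 5 of 15 tested. Dusp6, a phosphatase of ERK kinases, stood at 83.9, 109, 72.1 and 92.2 CPM in barcode-high and 50.2, 52.0, 33.2 and 23.0 CPM in barcode-zero neurons, without overlap (log2 fold change 1.20 ± 0.125, adjusted p = 1.41e-07). Dusp1, a related phosphatase, stood at 146, 172, 138 and 151 against 111, 107, 86.9 and 50.8 CPM (0.80 ± 0.103, adjusted p = 5.89e-06). Trib1, a pseudokinase, was less abundant, 27.2 to 37.0 against 10.8 to 15.2 CPM, and its groups did not overlap (1.30 ± 0.175, adjusted p = 8.10e-06). Tiparp (1.11) and Gadd45b (0.74) completed the set.

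Synaptic and secreted effectors gave 8 called genes of 16. Nptx2, a pentraxin that gathers AMPA receptors at synapses, stood at 77.7, 64.8, 64.7 and 100.1 CPM against 43.4, 41.6, 43.9 and 35.7 CPM (log2 fold change 0.91 ± 0.122, adjusted p = 8.10e-06). Arc, which promotes AMPA receptor endocytosis, stood at 186, 228, 183 and 288 against 149.8, 158, 113 and 73.8 CPM (0.85 ± 0.123, adjusted p = 2.12e-05). Bdnf, a neurotrophin, stood at 237, 206, 185 and 221 against 153, 165, 145 and 124 CPM (0.53 ± 0.0751, adjusted p = 1.53e-05). None of the 3 overlapped between groups. Cyr61 (1.28), Arl4d (1.04), Ptgs2 (0.85), Scg2 (0.61) and Vgf (0.56) were the others.

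Groups without overlap, barcode-high above barcode-zero, were found for 193 of all genes tested (1.86%) and for 23 of the 60 activity genes. The activity calls leaned on the sorted library. Without it 17 of the 26 activity genes were called and the median log2 fold change of the list was 0.32, and without unsorted 1, 2 or 3 the counts were 28, 27 and 25 with medians of 0.55 to 0.63.

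Promoter sequences are shown for 4 called activity genes and for Sstr2 and Sik2, called genes outside those lists, because all 6 hold the letters TGACG, the core of the cyclic AMP response element (CRE) through which the factor CREB drives many activity genes. Windows reach from 250 bases before to 50 bases after the transcription start, are written 5′ to 3′ along the gene, and come from RefSeq on GRCm38.p6. TGACG or its complement CGTCA is in capitals.

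Nr4a2 (chr2:57123954-57124253, minus strand): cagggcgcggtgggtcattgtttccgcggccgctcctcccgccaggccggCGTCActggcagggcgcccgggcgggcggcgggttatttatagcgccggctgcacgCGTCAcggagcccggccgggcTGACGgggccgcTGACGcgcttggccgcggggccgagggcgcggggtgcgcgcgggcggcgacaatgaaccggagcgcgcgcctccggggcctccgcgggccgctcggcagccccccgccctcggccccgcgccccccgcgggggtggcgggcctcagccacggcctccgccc

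Nr4a1 (chr15:101266596-101266895, plus strand): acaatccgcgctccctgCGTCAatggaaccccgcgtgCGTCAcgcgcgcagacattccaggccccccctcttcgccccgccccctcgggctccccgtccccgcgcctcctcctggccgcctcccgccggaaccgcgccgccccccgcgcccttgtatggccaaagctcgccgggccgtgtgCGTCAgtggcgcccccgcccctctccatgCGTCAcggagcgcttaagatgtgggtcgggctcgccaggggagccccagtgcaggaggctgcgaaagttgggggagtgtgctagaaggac

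Dusp1 (chr17:26508423-26508722, minus strand): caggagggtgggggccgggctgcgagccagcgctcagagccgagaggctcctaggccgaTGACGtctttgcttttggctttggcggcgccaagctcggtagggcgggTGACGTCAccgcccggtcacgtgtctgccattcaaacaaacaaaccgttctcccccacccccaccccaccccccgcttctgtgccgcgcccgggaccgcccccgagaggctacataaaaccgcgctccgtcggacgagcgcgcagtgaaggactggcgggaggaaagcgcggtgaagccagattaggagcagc

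Npas4 (chr19:4989922-4990221, minus strand): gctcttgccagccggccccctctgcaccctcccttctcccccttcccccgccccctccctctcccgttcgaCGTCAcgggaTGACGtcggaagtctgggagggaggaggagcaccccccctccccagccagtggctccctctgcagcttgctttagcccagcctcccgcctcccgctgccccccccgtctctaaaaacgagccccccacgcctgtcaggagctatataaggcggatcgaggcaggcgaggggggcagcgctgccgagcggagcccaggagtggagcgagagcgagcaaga

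Sstr2 (chr11:113619077-113619376, plus strand): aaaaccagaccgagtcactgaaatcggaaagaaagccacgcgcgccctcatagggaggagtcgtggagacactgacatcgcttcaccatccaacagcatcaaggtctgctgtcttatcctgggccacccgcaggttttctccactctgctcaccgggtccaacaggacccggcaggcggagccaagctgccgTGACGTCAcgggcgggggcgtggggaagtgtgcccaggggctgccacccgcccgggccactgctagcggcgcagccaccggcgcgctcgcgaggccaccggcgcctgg

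Sik2 (chr9:51009024-51009323, minus strand): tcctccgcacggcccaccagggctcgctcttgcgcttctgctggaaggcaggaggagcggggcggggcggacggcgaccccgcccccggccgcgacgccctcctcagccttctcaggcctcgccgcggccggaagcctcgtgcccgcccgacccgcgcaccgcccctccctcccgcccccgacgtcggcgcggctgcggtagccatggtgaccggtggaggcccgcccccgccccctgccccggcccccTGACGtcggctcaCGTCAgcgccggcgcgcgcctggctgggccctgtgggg

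The Nr4a2 and Nr4a1 windows each held 4 matches to TGACG on either strand, that of Dusp1 held 3, and those of Npas4, Sstr2 and Sik2 held 2 each. The full palindrome TGACGTCA, which contains a TGACG on each strand, was in the Dusp1 and Sstr2 windows. Of 26 called activity genes 19 had a window in the table, and 15 of these held TGACG on either strand. The same letters were in 13 of 28 genes called higher outside the activity lists, in 1 of 12 called lower, in 15 of 28 activity genes that were tested and not called, and in 23.0% of all 27025 genes with a window. The full palindrome was in 4 of 19, 2 of 28, 1 of 12, 3 of 28 and 2.03%, respectively. The shares over all genes with a window include genes too low to be tested, and no share over all tested genes was computed. A match is a description of the letters in this window and no measure of binding.

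Outside the activity lists, the genes called higher were of many kinds, and most were low in abundance. Lhfp, a tetraspan membrane protein gene, stood at 10.3, 13.9, 11.5 and 10.1 CPM in barcode-high and 5.91, 4.80, 0.896 and 2.38 CPM in barcode-zero neurons (log2 fold change 1.72 ± 0.346, adjusted p = 0.00262). Trbc2, a T cell receptor constant segment, stood at 21.3, 24.7, 33.7 and 10.4 against 10.8, 8.79, 7.17 and 5.55 CPM (1.47 ± 0.231, adjusted p = 9.11e-05), and its near-identical copy Trbc1 makes the count of either segment uncertain. Tmem91, a membrane protein gene, stood at 18.2, 27.0, 20.2 and 17.4 against 10.8, 14.4, 5.38 and 8.72 CPM (1.07 ± 0.217, adjusted p = 0.0029). In these 3 genes every library had the higher value in barcode-high neurons.

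Several of the others encode signalling proteins. Sik2, a salt-inducible kinase that restrains CREB co-activators, stood at 38.5, 24.7, 26.3 and 34.8 CPM against 16.7, 17.6, 13.4 and 12.7 CPM, without overlap (log2 fold change 1.03 ± 0.178, adjusted p = 0.000358). Pim3, a serine/threonine kinase, stood at 57.7, 62.9, 54.2 and 60.8 against 29.6, 37.6, 35.8 and 23.0 CPM (0.91 ± 0.130, adjusted p = 2.00e-05). Sstr2, a somatostatin receptor, stood at 25.1, 24.7, 17.6 and 22.3 against 8.87, 7.99, 4.48 and 22.2 CPM (1.00 ± 0.236, adjusted p = 0.0156). Its sorted library showed almost no gap. Adamts1, a secreted protease (0.99), Bmp2, a growth factor (0.96), and Ciart, a clock repressor (0.92), were also in the highest 12, as were Midn (0.87) and Sertad1 (0.85). Gm47423 (1.07) lies on the opposite strand of Ntrk2, the Bdnf receptor gene. Ntrk2 itself passed the test at 0.41, under the fold limit.

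Of the 19 genes called lower, none was on an activity list. Dcn, which encodes the matrix proteoglycan decorin, stood at 31.6, 30.5, 34.0 and 47.9 CPM in barcode-high and 55.2, 90.3, 44.8 and 59.5 CPM in barcode-zero neurons (log2 fold change -0.78 ± 0.142, adjusted p = 0.000767). Rgs13, a regulator of G protein signalling, stood at 13.1, 15.8, 12.2 and 7.02 against 30.5, 23.2, 26.9 and 13.5 CPM (-0.96 ± 0.193, adjusted p = 0.00266). Both were lower in 4 of 4 libraries, though values overlapped across libraries. Ninj1, an adhesion and membrane rupture protein gene (-1.02), Nupl2, a nucleoporin gene (-1.13), Limd1 (-0.86) and Plscr4 (-0.85) were lower without overlap. Gstm7 (-0.86) was also called, as was Gstm1 (-0.52), which is not among the lowest 8 and is named for its likeness to Gstm7. Both encode glutathione transferases whose sequences are alike, so that reads may be split between them. Gm44643 was the other gene of the lowest 8 (-0.78).

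Beyond that rule, and chosen after its value was seen, Npy2r, which encodes a receptor for neuropeptide Y, stood at 56.4, 46.3, 50.0 and 57.4 CPM in barcode-high and 76.9, 80.7, 73.5 and 67.4 CPM in barcode-zero neurons. The groups did not overlap (log2 fold change -0.50 ± 0.105, adjusted p = 0.00398).

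The number of calls outside the activity lists changed with single libraries and with depth. Without unsorted 3 there were 20 (17 higher, 3 lower), without unsorted 1 there were 35, and without the sorted library there were 57, now 28 higher and 29 lower. These are not all the same genes: of the 57 called with all libraries, 18, 29 and 34 were still called, in that order. With barcode-high neurons matched 1 to 1 to barcode-zero neurons on total UMIs, 21 activity genes and 16 others were called. Of these, 20 and 13 had been called in the main comparison. With each neuron thinned to 10000 UMIs the counts were 22 and 20, of which 22 and 15 had been called in the main comparison.

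**Figure D3:**
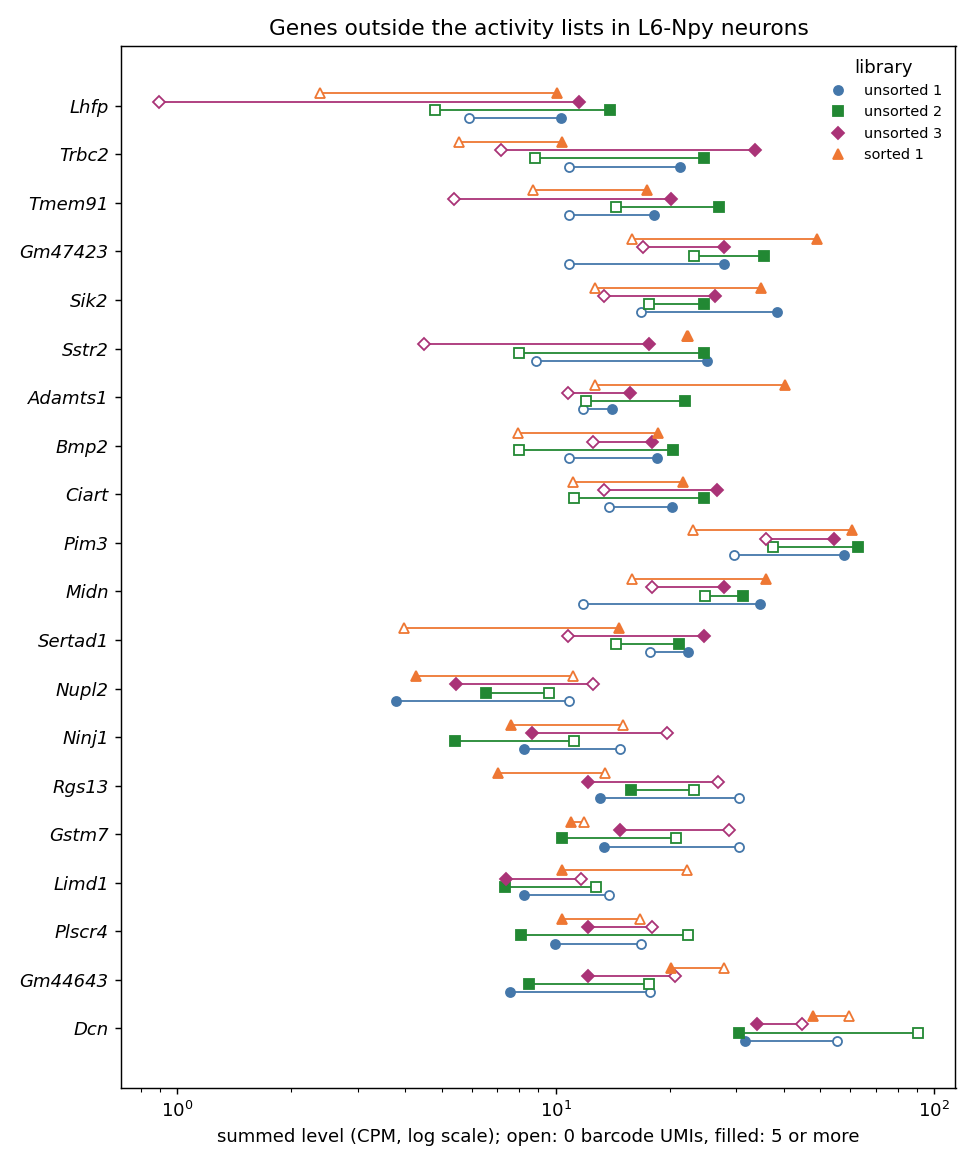
Levels of the 12 genes highest and the 8 lowest by log2 fold change among called genes outside the activity lists (CPM, logarithmic horizontal axis, one row per gene) in L6-Npy neurons, with filled points for barcode-high and open points for barcode-zero neurons and one line per library. Points range from 0.896 CPM for Lhfp to 90.3 CPM for Dcn, and the direction is the same in 4 of 4 libraries for each gene because the choice required it.

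The name-giving peptide was lower where the barcode was high. Npy stood at 213, 204, 245 and 99.5 CPM in barcode-high and 287, 287, 306 and 145 CPM in barcode-zero neurons. It was lower in 4 of 4 libraries, and the sorted library stood below the others in both groups. The log2 fold change was -0.44 ± 0.0615 (edgeR adjusted p = 1.53e-05), which passed the test but lay under the fold limit. The other defining markers did not pass: Sulf1 had a log2 fold change of 0.09 (adjusted p = 0.771) and Slc17a7 one of 0.05 (adjusted p = 0.673).

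By barcode bin, on a scale of CPM over all UMIs without TMM factors, mean Npy was 253 ± 65.3, 229 ± 89.4, 199 ± 58.1 and 134 ± 86.3 CPM (SD, n = 4) in neurons with 0, 1 to 4, 5 to 19 and 20 or more barcode UMIs. The last bin held 15 neurons in the sorted library, where Npy was 6.92 CPM, against 159 to 201 CPM in the unsorted libraries. Nr4a2 in the same bins stood at 62.4 ± 21.9, 50.9 ± 12.2, 132 ± 34.2 and 372 ± 83.9 CPM. Fos stood at 423 ± 87.6, 339 ± 50.2, 527 ± 105 and 978 ± 100.3 CPM. Both activity genes had their lowest mean in the bin of 1 to 4 UMIs and their highest in the last bin. Mean Npy was lower in each successive bin, although unsorted 3 reached its highest Npy value, 359 CPM, at 1 to 4 UMIs.

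**Figure D4:**
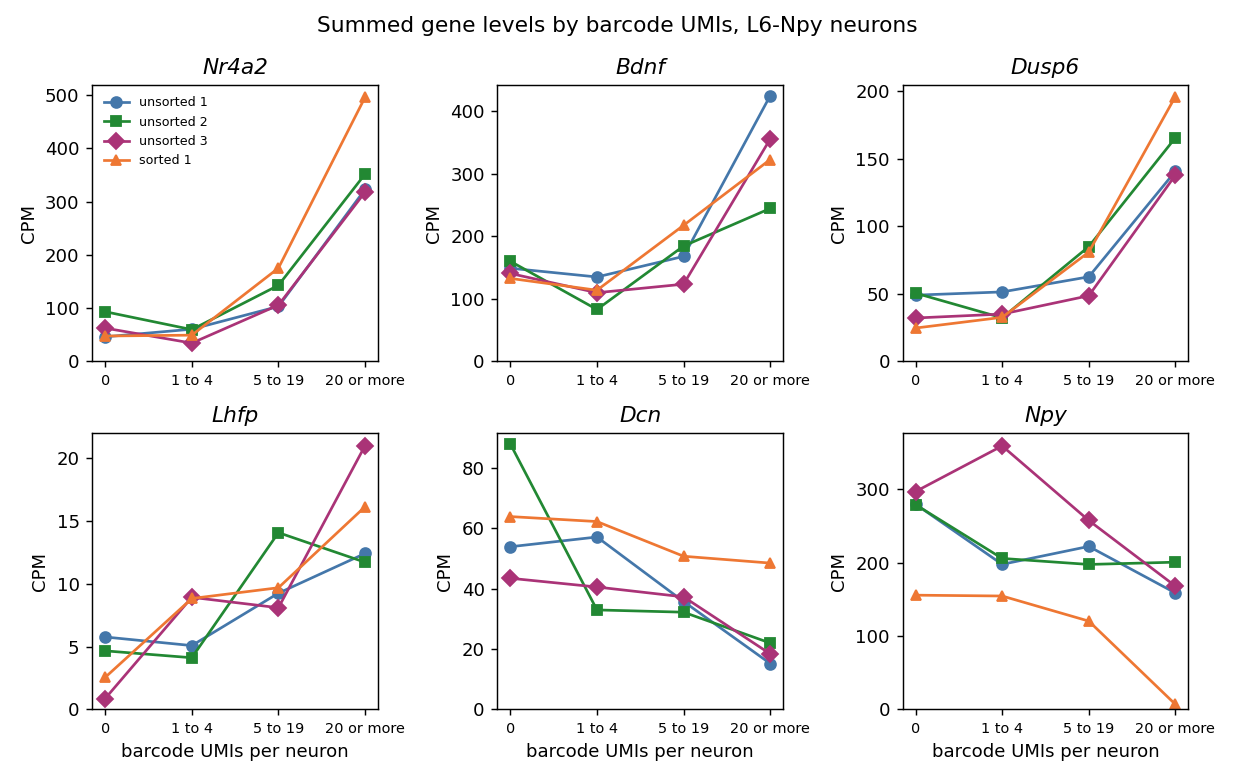
Levels of Nr4a2, Bdnf, Dusp6, Lhfp, Dcn and Npy (CPM over all UMIs, vertical axis, a scale for each gene) in L6-Npy neurons with 0, 1 to 4, 5 to 19 and 20 or more barcode UMIs, one line per library. Nr4a2 lies at 46.1 to 93.3 CPM in barcode-zero neurons and at 318 to 496 CPM in neurons with 20 or more barcode UMIs, and Npy reaches its lowest value, 6.92 CPM, in the 15 sorted neurons of the last bin.

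Genes that the study names in connection with projections were examined as a list of 13, of which 7 were tested. Cyr61, a matricellular protein gene also on an activity list, was called higher (log2 fold change 1.28 ± 0.334, adjusted p = 0.036). Rprm, a cell cycle inhibitor gene and layer 6 marker, was called higher at 0.82 ± 0.186 (adjusted p = 0.0101), with 24.4, 47.4, 42.6 and 13.7 CPM against 12.8, 28.0, 14.3 and 15.9 CPM. It was lower, not higher, in the sorted library. Crym, a thyroid hormone-binding protein gene, passed the test under the fold limit (-0.47, adjusted p = 0.0203). Slc24a3 (0.02), Hs3st4 (0.85), Bc1 (-0.01) and Nptxr (0.03) did not pass, and Syt6, Foxp2, Rorb, Pou3f1, Igfbp4 and Gprc5b had too few counts to be tested.

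Called members of the stress and defence lists stand beside the 0.617% of all genes tested that were called higher, and in lists this short a single gene is a large share. Of 12 heat shock genes tested Dnajb1 was called, at 102, 120.4, 112 and 156 CPM against 81.8, 81.5, 83.3 and 76.1 CPM (log2 fold change 0.61 ± 0.0947, adjusted p = 7.44e-05). The list's median was 0.06. Of 16 genes of the unfolded protein response 0 were called, with Atf4 (0.42, adjusted p = 0.000847) and Hsp90b1 (0.28, adjusted p = 0.0192) past the test but under the fold limit. Of 14 p53 and DNA damage genes Btg2 (0.65) and Cdkn1a (0.55) were called, and Btg2 is also on an activity list. None of 5 interferon and antigen presentation genes tested was called, and 15 of that list's 20 members had too few counts. None of 10 genes for AAV entry and trafficking was called, and the lowest p values there were those of Rpsa (-0.12) and Itgav (0.38). Of 13 mitochondrially encoded genes 0 were called, with log2 fold changes of -0.13 to 0.01.

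Marker lists of neuron types and axon guidance genes are read against the same 0.617%. Of 31 axon guidance genes tested, the receptor genes Nrp1 (log2 fold change 0.58 ± 0.143, adjusted p = 0.0211) and Robo2 (0.50 ± 0.129, adjusted p = 0.0314) were called higher. Nrp1 stood at 41.2, 42.8, 35.6 and 37.5 CPM against 20.7, 32.0, 26.0 and 25.4 CPM, without overlap. None of 4 layer 2/3 markers was called, and all 4 had negative values (-0.36 to -0.26). None of 4 layer 5 markers was called. Of 10 intratelencephalic and Car3 layer 6 markers Nr4a2 was called, of 5 corticothalamic markers Rprm, and of 5 neurotrophin pathway genes Bdnf. None of 4 neuropeptide genes and none of 6 excitatory and layer 6 markers was called. The neuropeptide sum was 3567 to 4302 CPM in the unsorted groups and 1383 to 1425 CPM in the sorted ones.

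Markers of other cells differed in level. The summed inhibitory neuron list was 0.851 to 14.2 CPM over the 8 sums, the layer 6b list 3.47 to 8.61 CPM, the vascular list 6.81 to 26.1 CPM and the microglial list 7.06 to 36.4 CPM. The oligodendrocyte list was higher, 85.4 to 98.8 CPM in barcode-high and 84.2 to 118 CPM in barcode-zero sums, much of it from Mbp, a myelin protein gene (49.4 ± 5.95 and 58.1 ± 8.52 CPM, SD, n = 4). No inhibitory neuron or layer 6b marker had enough counts to be tested. None of 2 microglial, 3 oligodendrocyte or 1 vascular markers tested was called. Of 2 astrocyte markers tested Slc1a2, a glutamate transporter gene, was called (141, 128, 129 and 135 CPM against 90.6, 117, 57.3 and 104 CPM, log2 fold change 0.53 ± 0.0990, adjusted p = 0.00114), while Aldoc was not (-0.29). The summed astrocyte list was 151 to 163 CPM in barcode-high and 85.9 to 144 CPM in barcode-zero sums, and its defining members were near 0 and not tested, with 7 UMIs of Aqp4, 2 of Aldh1l1, 3 of Gja1 and 1 of Gfap over all barcode-high sums and 6, 0, 0 and 2 over all barcode-zero sums. The remaining member, Slc1a3, another glutamate transporter gene with too few counts to be tested, had 15 UMIs in barcode-high and 2 in barcode-zero sums. The part of astrocyte RNA in the call of Slc1a2 was not tested. In neurons matched on total UMIs the log2 fold change of Slc1a2 was -0.023.

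The neurons with 1 to 4 barcode UMIs were set against the same barcode-zero neurons. Of 9706 genes tested, 10 were called (0.103%), 4 higher and 6 lower. Of the 26 activity genes called in barcode-high neurons 25 were tested here, and 21 had negative values (median -0.23). Npas4 was called lower (log2 fold change -0.50). The 19 other genes called lower in barcode-high neurons all had negative values here as well (median -0.39), and Sox4 and Csrp2 were called. Of the 38 other genes called higher 37 were tested and 29 had positive values (median 0.20). Both comparisons share the barcode-zero neurons, so these values stand side by side and carry no test of likeness. The count of 10 was 4 without unsorted 3 and 5 without unsorted 1, and DESeq2 called 0 (75 at an unadjusted p under 0.05, against 720 in edgeR).

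To separate activity genes from the rest, L6-Npy neurons were divided within each library at the median share of activity UMIs. The upper stratum held 59.6, 66.7, 56.5 and 64.7% of barcode-high neurons and 44.8, 41.2, 43.9 and 36.7% of barcode-zero neurons. These shares restate the higher activity share of barcode-high neurons given above and carry no test.

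In the lower stratum 1 of 8488 genes was called (0.0118%), the activity gene Arc, whose UMIs were among those that set the strata, and outside the activity lists edgeR called 0 (544 at an unadjusted p under 0.05) and DESeq2 0 (40). Without unsorted 3 the count outside the lists was 4, and without the sorted library it was 7. The sums were smaller there, with 31 to 40 barcode-zero and 41 to 64 barcode-high neurons per library. Of the 38 other genes called higher in all neurons 31 were tested and 23 were positive (median 0.28), and of the 19 called lower 16 were tested and 16 were negative (median -0.46).

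In the upper stratum 66 of 9233 genes were called (0.715%), 57 of them outside the activity lists, 28 higher and 29 lower. The barcode-zero sums held 18 to 28 neurons per library. Npy was among those called lower, with a log2 fold change of -0.85 ± 0.088 (adjusted p = 2.43e-10), while in the lower stratum it was -0.10 ± 0.102 (adjusted p = 0.933). Dcn was at -1.08 and Rgs13 at -1.39 in the upper stratum, against -0.49 and -0.54 in the lower. Sstr2 was at 1.83 against 0.43, and Trbc2 at 2.05 against 0.72. The differences between strata were not tested. Since the strata were defined by activity UMIs, nothing is drawn from activity genes within them.

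The same contrast was made in the L6-Syt6 and L5-S100b neurons, the other types with many neurons of both groups, and the difference of the log2 fold changes was tested gene by gene. In L6-Syt6 neurons (1635 barcode-high, 2327 barcode-zero) 0.806% of 13030 genes were called higher, and in L5-S100b neurons (958 and 195) 1.10% of 11477. The shares called lower were 0.867% and 1.60%. Of the 26 activity genes called in L6-Npy neurons, 15 were called higher in L6-Syt6 (median log2 fold change 0.56) and 6 in L5-S100b neurons (median 0.36). The difference from L6-Syt6 was called for 177 of 11596 genes (1.53%), and from L5-S100b for 125 of 10905 (1.15%). These counts moved with single libraries: the first was 45, 43, 71 and 243 without unsorted 1, 2, 3 and sorted, and the second 75, 69, 101 and 120.

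Nr4a2 differed from both types. Its log2 fold change was 1.55 in L6-Npy, 0.55 in L6-Syt6 and 0.16 in L5-S100b neurons, and the differences were 1.00 ± 0.155 (adjusted p = 0.000999) and 1.39 ± 0.230 (adjusted p = 0.000227). Nptx2 was higher with the barcode in L6-Npy and in L5-S100b neurons (1.20) but not in L6-Syt6 neurons (-0.24), a difference of 1.16 ± 0.215 from the latter (adjusted p = 0.00588). Nr4a3 was at -0.13 in L5-S100b neurons, a difference of 0.78 ± 0.144 (adjusted p = 0.0011). Because these genes had been chosen on the L6-Npy values, which are part of each difference, their sizes are a description.

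Most genes named for the lowest p values of these differences had no call in L6-Npy neurons. Nnat, an imprinted proteolipid gene, was at -0.24 in L6-Npy and 0.66 in L6-Syt6 neurons (difference -0.89 ± 0.076, adjusted p = 7.77e-07). Nos1, the neuronal nitric oxide synthase gene, was at -0.38 in L6-Npy and 1.11 in L6-Syt6 neurons (difference -1.49 ± 0.186, adjusted p = 0.000193). Cdh13, an adhesion gene, was at -0.19 in L6-Npy and -1.70 in L5-S100b neurons (difference 1.51 ± 0.093, adjusted p = 3.65e-14). In each of these the larger shift belonged to the other type.

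The other genes called in L6-Npy neurons were shared unevenly. Of the 38 called higher, 5 were called higher in L6-Syt6 and 5 in L5-S100b neurons. Of the 19 called lower, 15 were tested in L6-Syt6 neurons with 7 negative, 8 positive and 2 called in the opposite direction, and 17 were tested in L5-S100b neurons with 16 negative and 7 called lower (median -0.77). Dcn was at -2.84 and Rgs13 at -1.17 in L5-S100b neurons.

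**Figure D5:**
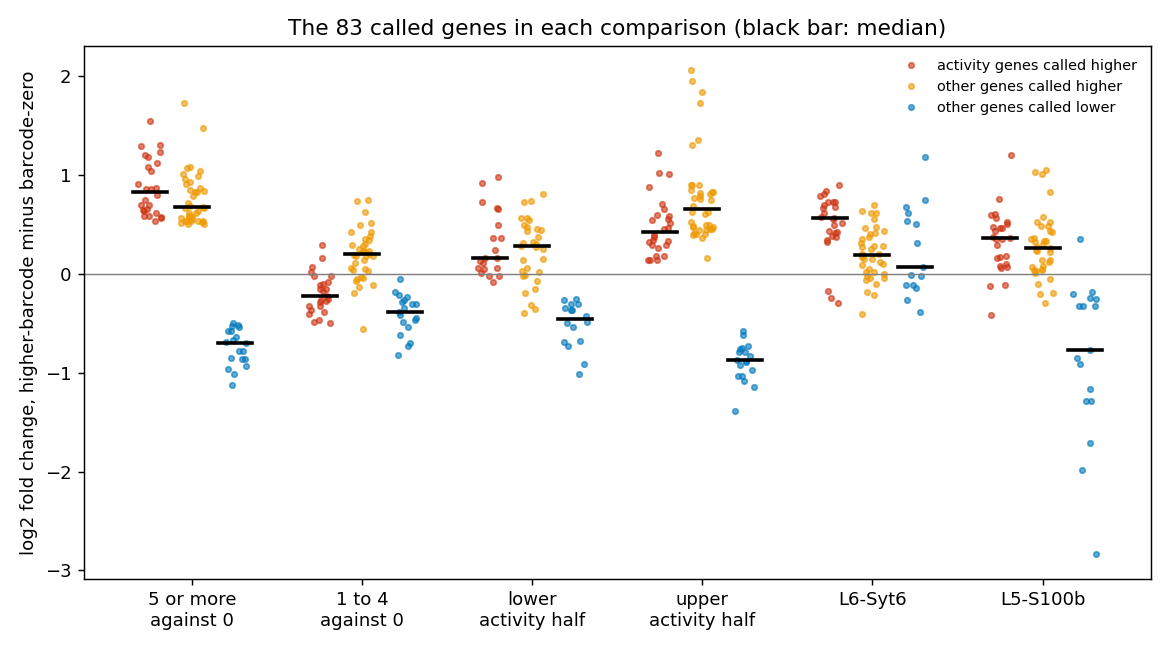
Log2 fold changes of the 83 genes called in L6-Npy neurons (vertical axis, log2) across comparisons (horizontal axis), one point per gene with black bars for medians, separated into activity genes, other genes higher and other genes lower. The activity genes have a median of 0.82 in the main comparison and -0.23 in neurons with 1 to 4 barcode UMIs, and the other genes called lower have medians of -0.70 in L6-Npy and 0.06 in L6-Syt6 neurons.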

How the data were processed

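RNA was measured in 4 droplet libraries (3 unsorted, 1 EGFP-sorted). Per the labels and methods, the authors aligned reads to mm10 with Cell Ranger, filtered and clustered cells with Seurat and Scanpy and named the subtypes. The deposited matrices hold raw UMI counts per gene and cell, with the barcode as 1 feature, and the deposited metadata also give the percent of mitochondrial UMIs computed by the authors. Cells with very many genes or UMIs had been left out by the authors as potential doublets, and no doublet caller was run here.

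Here raw counts of neurons with the authors' L6-Npy name were summed per library and barcode group, leaving out the barcode feature. Sums were compared in edgeR 4.0.16 (TMM, filterByExpr, quasi-likelihood F test, library as block). A gene counted as called when its p, adjusted by Benjamini and Hochberg over all genes tested, was under 0.05 and the fold change was 0.5 or more on the log2 scale in either direction. Library totals over all cells were 54749198 to 87841541 UMIs, and the number of libraries limits the precision. The members and gene lists were chosen with earlier results of these data known, which is why single lists are described by counts, levels and medians. The pooled activity share was given sign-flip tests, and the same limit holds for their p-values. Genes were named by a fixed rule: called activity genes with values for the 14 of lowest p, the 12 highest and 8 lowest other called genes with 1 direction in 4 of 4 libraries, Npy, Sulf1, Slc17a7 and genes the study names, up to 4 called members or the 2 of lowest p of every other list, and 5 genes of each difference between subtypes. Gene positions and overlaps came from the GRCm38 annotation. Alternatives were DESeq2 1.42.0, limma 3.58.1 (voom), RLE factors, no count filter, no library block, no fold limit, other barcode cuts, depth matching, thinning to 10000 UMIs, and each library left out. A limit of 10% mitochondrial UMIs and the range of 5 to 19 barcode UMIs were added after seeing the data. R 4.3.3 was used.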

Additional observations from a re-analysis of the deposited data

Results flagged for a closer look

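Npy in barcode-zero neurons was 145 CPM in the sorted library, far from the other 3 libraries, which stood at 287 to 306 CPM. Of 77 sets of 4 library values tested in this way 1 stood out, and chance alone marks about 1 in 20.

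The barcode contrast differed between L6-Npy and L6-Syt6 neurons for 177 genes and between L6-Npy and L5-S100b neurons for 125 genes (edgeR, adjusted p under 0.05 and at least 0.5 on the log2 scale). The difference from L6-Syt6 neurons was called for 8 activity genes. Among them, the log2 fold change in L6-Npy minus that in L6-Syt6 neurons was 1.00 for Nr4a2, 0.96 for Trib1 and 1.16 for Nptx2. These 3 were chosen on their L6-Npy values. Against L5-S100b neurons 6 activity genes were called, among them Nr4a2 at 1.39, Fosl2 at 0.82, Nr4a3 at 0.78 and Dusp6 at 0.73. Among other genes, the difference from L6-Syt6 neurons was -0.89 for Nnat, 1.06 for Rxfp1, which encodes a relaxin receptor, -1.03 for Kitl, the ligand of the Kit receptor, -1.49 for Nos1, -1.26 for Blnk, a B cell adaptor gene, and -0.56 for Alcam, an adhesion gene. The difference from L5-S100b neurons was 0.68 for Rxfp1, -0.93 for Nos1, 1.51 for Cdh13, -0.81 for Slc24a2, a sodium-calcium exchanger gene, 0.59 for Nell2, a secreted guidance protein gene, -1.04 for Alcam and 0.88 for Camk2n2, an inhibitor of CaMKII. The sorted library held 94 barcode-zero L6-Syt6 and 24 barcode-zero L5-S100b neurons, fewer than each unsorted library.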

How the results depend on the processing

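The main counts were 83 genes, 26 activity genes and 57 others, with an activity median of 0.52 (log2). DESeq2 gave 11, 8 and 3. Without the replicate block, that is without library as a term, edgeR gave 0, 0 and 0 (406, 35 and 371 at an unadjusted p under 0.05). The library pairs the groups because barcode-high and barcode-zero neurons come from the same libraries. Without the fold limit 162 genes were past the test, 129 of them others. Against the same barcode-zero neurons, neurons with 1 or more barcode UMIs gave 31, 10 and 21 (median 0.29), those with 5 to 19 gave 33, 13 and 20 (median 0.31), and those with 20 or more gave 228 with 189 others (median 0.98). Matching on total UMIs gave 37 with 16 others, and thinning to 10000 UMIs gave 42 with 20 others. Of the 57 others in the main counts, 13 were still called when matched and 15 when thinned. The log2 fold change of Slc1a2 was reversed at -0.023 when matched. Leaving out 1 library gave 45 to 75 genes, 17 to 28 activity genes, 20 to 57 others and medians of 0.32 to 0.63. RLE factors, limma-voom, no count filter and a limit of 10% mitochondrial UMIs kept the 3 counts within 1.5 times. All 83 genes kept their sign with DESeq2, limma-voom and each library left out. For neurons with 1 to 4 barcode UMIs the count of 10 became 0 with DESeq2 and 4 to 11 without 1 library. In the lower activity stratum the count of 0 became 4 without the filter and 0 to 7 without 1 library. The difference from L6-Syt6 (177) became 278 without the filter and 43 to 243 without 1 library, and that from L5-S100b (125) became 59 with DESeq2 and 69 to 120. The cause was not tested. A limit of 5% mitochondrial UMIs was not run, since it leaves 0 unsorted L6-Npy neurons of either group.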
